A study of Mus musculus with 8 samples.

Results

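The subject here is the interaction of gate and mouse in mammary gland cells: the genes whose difference between basal and luminal cells was not the same in CD1 mice and in mice with a ΔNp63 transgene. For each gene the luminal value was taken from the basal value, on a log2 scale, in each kind of mouse, and the CD1 difference was then taken from the transgenic one. A negative interaction means that, in the transgenic mice, the balance moved towards the luminal gate, and a positive one that it moved towards the basal gate. Of 16900 genes tested, out of 49671 in the table, 58 were called at an adjusted p under 0.05 (0.343%), 14 of them positive (0.0828%) and 44 negative (0.26%). All 8 libraries of the series entered the test, 2 in each of 4 groups.

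The mice were females of mixed genetic backgrounds. CD1 luminal and CD1 basal cells came from the CD1 strain. DNp63 luminal and DNp63 basal cells, named so here, came from K8rtTA/TetOCre/Rosa26-DNp63-IRES-GFP mice. In these mice the keratin 8 promoter drives rtTA, a doxycycline-dependent activator, and through it Cre, in luminal cells, and Cre switches on ΔNp63 together with GFP from the Rosa26 locus. Only GFP+ cells of these mice were sorted, while the CD1 cells had no GFP gate. All groups were CD45-, CD31- and CD140a-, gates against blood, endothelial and stromal cells. The luminal gate was CD24+ CD29low (40000 cells) and the basal gate CD24+ CD29high (5000 cells). Transgene, strain, doxycycline and the GFP gate go together in every comparison of CD1 with DNp63 cells and cannot be told apart. The age of the mice and the induction schedule of the K8rtTA line with ΔNp63 are not stated in the sources used here.

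The mammary epithelium has an inner luminal layer, which expresses keratins 8, 18 and 19, holds the hormone receptors and makes milk, and an outer basal layer of contractile cells with keratins 5 and 14, which rests on the basement membrane. ΔNp63, the main p63 form of basal cells, is a transcription factor needed for stratified and basal epithelia. Several members described below belong to the cilium: motile cilia beat by dynein arms on a microtubule axoneme under the control of the factor Foxj1 and RFX factors, and every cilium is built by intraflagellar transport, a train of proteins moved by kinesin and dynein motors.

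Values are reads per 20000000 as deposited, and each library held 4136984 to 7206703 reads on genes. The gates held their labelled cells in both kinds of mice: Krt5 was 7502 to 14973 in the 4 basal libraries and 97 to 167 in the 4 luminal ones, and Krt8 was 42397 to 45769 in the luminal libraries and 3688 to 8264 in the basal ones. Transcripts of other cells were present. A list of 17 endothelial genes summed to 53153 to 77348 in the basal libraries and 3991 to 5320 in the luminal ones. For 12 pericyte genes the sums were 20756 to 28955 and 4555 to 6383, and for 12 adipocyte genes 19922 to 35498 and 920 to 2546, in the same order. A list of 16 fibroblast genes was uneven between libraries of 1 group, at 10084 and 51272 in CD1 luminal, 28634 and 65243 in CD1 basal, 19924 and 11784 in DNp63 luminal, and 90529 and 121347 in DNp63 basal. CD1 luminal replicate 2 therefore stood apart from its partner, and the calls that remained without it are counted at the end. In sorted pools, fewer cells of a type and less RNA per cell cannot be told apart. The labels do not say whether both libraries of a group are from different animals, so p-values measure the spread between these libraries alone.

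Most of the gate difference was shared by both kinds of mice. The CD1 gate difference was called in 7494 genes (44.3%, with 24.2% higher and 20.1% lower in basal cells) and the DNp63 gate difference in 8323 (49.2%, with 24.9% higher and 24.4% lower). Of the 6136 called in both, which were 81.9% of the CD1 calls and 73.7% of the DNp63 calls, 6105 had the same direction. Across the 16900 genes the 2 gate differences, which share no library, had a Pearson r of 0.899 and a Spearman rho of 0.861, with a slope of 0.973; genes are not independent replicates. The interaction itself had a median of -0.05 and lay between -1.16 and 0.93 in the middle 90% of genes. Its standard error was 0.377 for the median gene, so its 95% interval reached 0.858 to either side, and 57 of the 58 genes called had a value of 2-fold or more. At an unadjusted p under 0.05 there were 1781 genes, and at an adjusted p under 0.1 there were 209.

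**Figure D1:**
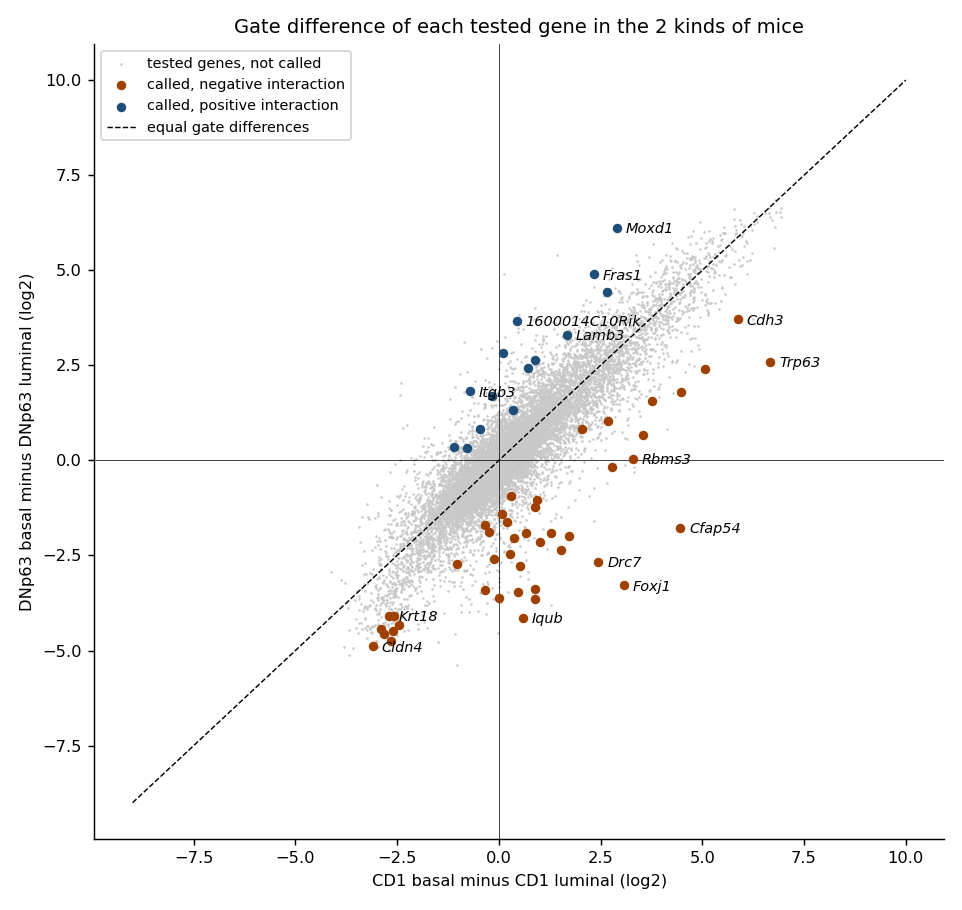
Basal minus luminal difference (log2) of each tested gene in CD1 cells (x axis) and DNp63 cells (y axis); brown and blue points are the 44 negative and 14 positive interactions called, and the dashed line marks equal differences. Foxj1, Cfap54 and Drc7 lie right of 0 and below 0, higher in the basal gate of CD1 mice and in the luminal gate of DNp63 mice, while Moxd1 and Fras1 lie above the line.

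In 31 genes both gate differences were called and pointed in opposite directions, 23 of them basal in CD1 and luminal in DNp63 mice and 8 the reverse, and 13 of the 31 were called in the interaction. Among the 44 negative members the gate difference changed sign in 21, widened towards the luminal gate in 14 and narrowed in 9. Among the 14 positive ones it widened in 9, changed sign in 5 and narrowed in 0. These signs are those of the fitted values, and both gate differences were called in only 13 of the members that changed sign. The comparison of CD1 with DNp63 cells within each gate, which uses the same libraries, gives the change of a member in each gate. DNp63 and CD1 luminal cells differed in 749 genes (4.43%, with 2.65% higher and 1.78% lower in DNp63), and DNp63 and CD1 basal cells in 121 (0.716%, with 0.195% higher and 0.521% lower). Of the 58 members, 49 were called in the luminal gate alone, 8 in the basal gate alone and 1, Krt19, in both. A call in 1 gate alone does not place the whole change there, since far fewer genes passed in the basal gate. By size, the larger difference lay in the basal gate in 9 negative and 2 positive members. Among them, Pdzrn3 (-0.63 luminal, 0.64 basal) and Nipal1 (0.74 luminal, -0.77 basal) were called in the luminal gate alone. The group with the highest mean was DNp63 luminal in 34 members, all negative, DNp63 basal in 16, CD1 luminal in 4 and CD1 basal in 4. Because the shared libraries tie these counts to the interaction, they describe its members and are no further support for it.

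**Figure D2:**
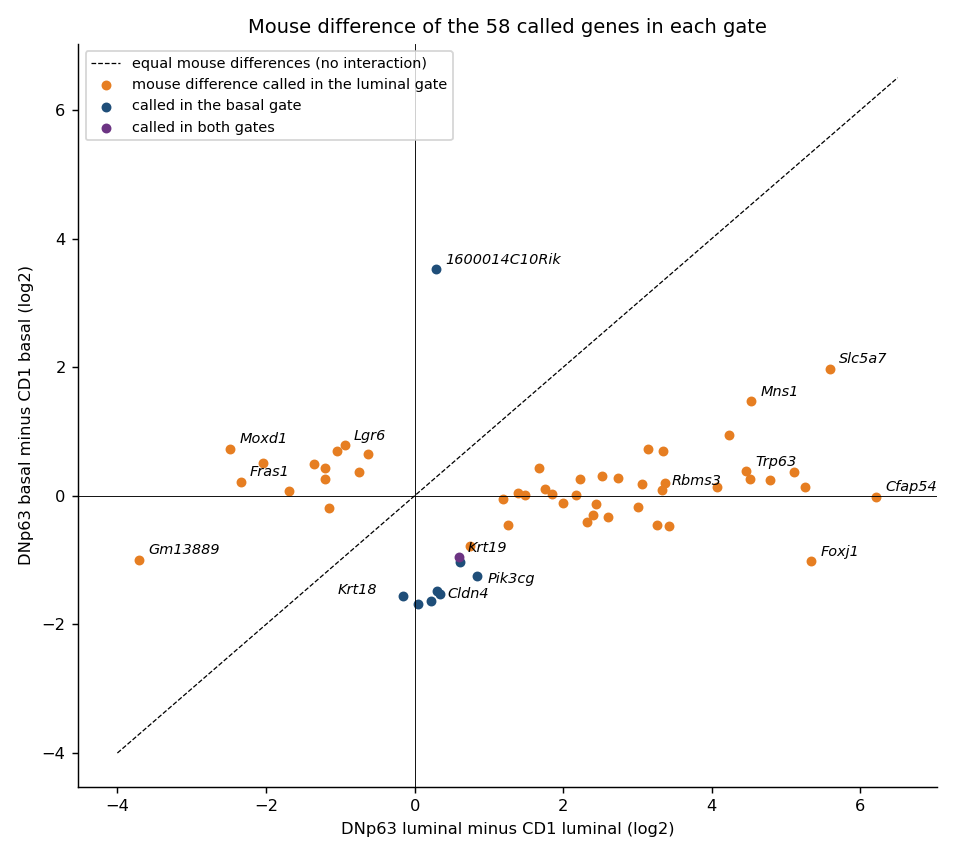
DNp63 minus CD1 difference (log2) of the 58 called genes in the luminal gate (x axis) and the basal gate (y axis); colours give the gate in which the difference was called, and points on the dashed line would have no interaction. Cilium genes and Trp63 spread to the right along 0, Moxd1 and Fras1 lie to the left, and Krt18, Cldn4 and their neighbours lie below 0 near the middle.

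The 3 most negative interactions belonged to cilium genes, Foxj1, Cfap54 and Drc7. Foxj1, the transcription factor that switches on the motile cilium programme (ENSMUSG00000034227, chr11:116330704-116335399, minus strand, GRCm38), had the largest negative value of all members. It read 79 and 49 in CD1 luminal cells, 692 and 504 in CD1 basal, 2637 and 3314 in DNp63 luminal, and 317 and 266 in DNp63 basal. In CD1 mice it was thus higher in the basal gate, and in DNp63 mice in the luminal gate, with no overlap between gates in either, and the basal level was 934% of the luminal one in CD1 and 9.80% in DNp63 mice. The interaction was -6.36 (SE 0.36, limma adjusted p = 0.000592). The luminal gate carried it: DNp63 luminal exceeded CD1 luminal by 5.34 on the log2 scale (limma adjusted p = 5.29e-05), and the basal difference of -1.02 did not pass (limma adjusted p = 0.149).

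Cfap54, a protein of the central apparatus of motile cilia (ENSMUSG00000020014, chr10:92775619-93081618, minus strand), followed the same pattern. Its values were 4 and 15 in CD1 luminal, 358 and 356 in CD1 basal, 1111 and 1429 in DNp63 luminal, and 321 and 397 in DNp63 basal. The basal libraries of both kinds of mice overlapped, and the luminal ones were far apart. The interaction was -6.22 (SE 0.46, limma adjusted p = 0.00155), and the basal gate difference between mice was -0.02. Fitted changes of genes with so few reads in CD1 luminal cells depend on the pseudocount of 8, and that of Cfap54 was -4.95 with a pseudocount of 32 and -7.01 with voom on recovered reads.

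Drc7, of the dynein regulatory complex (chr8:95055103-95078141), read 11 and 4 in CD1 luminal, 69 and 80 in CD1 basal, 456 and 748 in DNp63 luminal, and 110 and 63 in DNp63 basal, with an interaction of -5.11 (SE 0.57, limma adjusted p = 0.0158). Dnah2, a dynein heavy chain of the axoneme (chr11:69420809-69549110), read 36 and 41, 165 and 132, 411 and 501, and 93 and 121 in the same order of groups. Its interaction was -3.72 (SE 0.39, limma adjusted p = 0.0128). Both genes were higher in the basal gate of CD1 mice and in the luminal gate of DNp63 mice, without overlap. Pifo, linked to the base of the cilium, was listed at 0 in both CD1 luminal libraries, at 10 and 4 in CD1 basal, at 9 and 10 in DNp63 basal, and at 203 and 231 in DNp63 luminal (interaction -4.53, limma adjusted p = 0.0239). Mns1, which lies inside the axonemal doublets, stood at 525 and 748 in DNp63 luminal cells and between 12 and 59 in the other 6 libraries (-3.06, limma adjusted p = 0.0425). Exons of Mns1 share 2842 bases with Tex9 on the opposite strand, and the strand setting of the counts is not stated in the sources used here, so its reads are uncertain in origin.

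**Figure D3:**
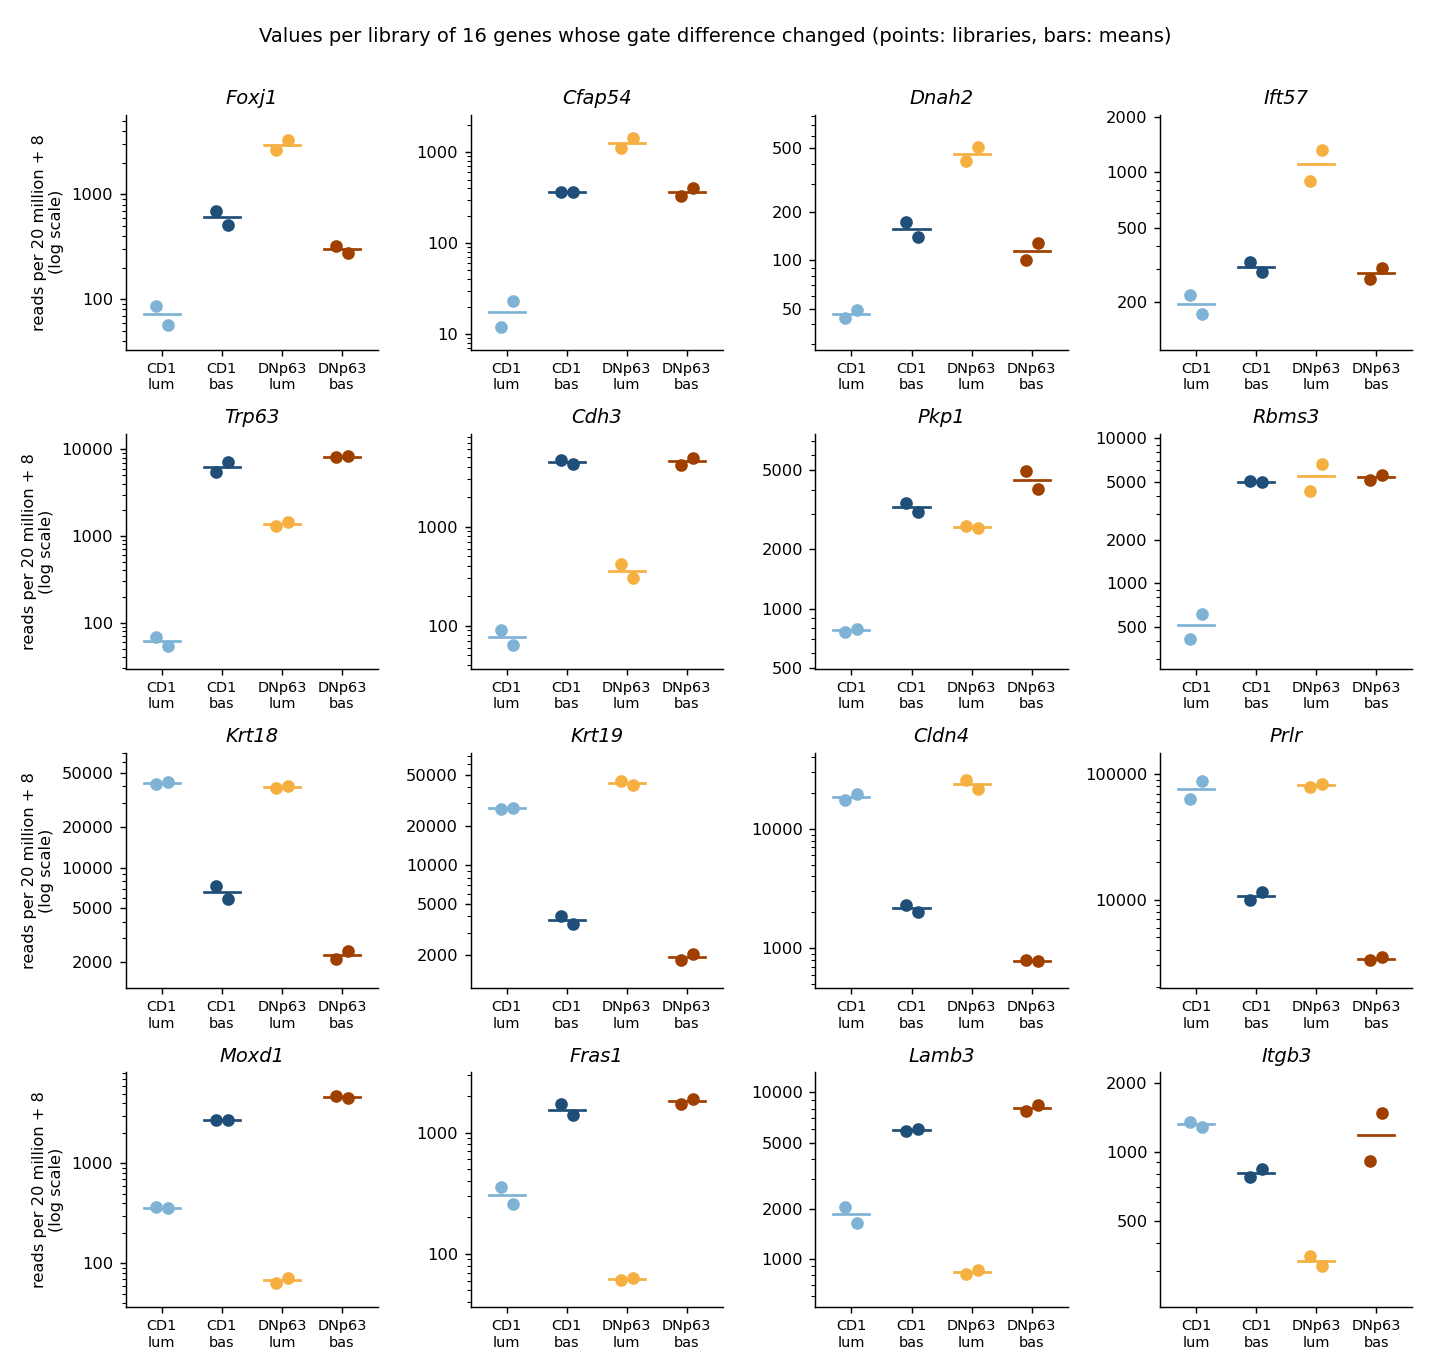
Value in each library plus 8 (reads per 20000000, log axis) of 16 called genes in the 4 groups, 2 points per group with a bar at their mean. The top row holds cilium genes, highest in DNp63 luminal; the second row holds genes whose gate difference narrowed; the row under it holds luminal genes, lowest in DNp63 basal; the last row holds positive interactions, lowest in DNp63 luminal.

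Genes that build cilia of any kind moved in the same direction by less. Ift57, a subunit of the intraflagellar transport B complex, read 210 and 163 in CD1 luminal, 321 and 280 in CD1 basal, 891 and 1307 in DNp63 luminal, and 258 and 295 in DNp63 basal (interaction -2.57, SE 0.33, limma adjusted p = 0.0299). Ttc26, another subunit of that complex, was at 983 and 1343 in DNp63 luminal and between 101 and 286 elsewhere (-2.41, limma adjusted p = 0.0368). Kif3a, the motor that carries these trains, was at 1344 and 1616 in DNp63 luminal and between 483 and 554 elsewhere (-1.48, limma adjusted p = 0.0353). In each of the 3 genes the 2 DNp63 luminal libraries lay above the other 6. The same held for Tmem67, a protein of the ciliary transition zone (1130 and 1550 against 341 to 474, interaction -1.82, limma adjusted p = 0.0442), and for Rabl2, a small GTPase that binds the transport complex (569 and 814 against 152 to 339, interaction -2.10, limma adjusted p = 0.0414).

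Ttc26, Rabl2 and the cilium genes that follow lay outside the lists. Ttc26, Rabl2, Stk36, Cfap45 and Spata6 were named after their values were seen. Kif27 and Stk36, a kinesin and a kinase needed for motile cilia, were at 1124 and 1335, and at 1177 and 1327, in DNp63 luminal cells. Across the other 6 libraries Kif27 lay between 49 and 150 and Stk36 between 132 and 213, for interactions of -3.94 and -2.47. Cfap45, a protein inside the microtubule doublets, rose from 86 and 171 in CD1 to 1277 and 1511 in DNp63 luminal cells, with 216 to 324 in the basal libraries (-3.17, limma adjusted p = 0.0320). Iqub was at 247 and 458 in DNp63 luminal and between 0 and 20 elsewhere (-4.73). Spata6, a gene of the sperm flagellum, was at 2251 and 2505 against 679 to 897 elsewhere (-1.36).

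The lists give the same picture with its limits. Of 56 axoneme genes tested, 5 were called, all lower (Cfap54, Drc7, Pifo, Dnah2 and Mns1), 53 had a negative interaction, and the median was -2.05 against -0.05 over all genes tested. In 43 of the 56 the single-library gate differences of the 2 kinds of mice did not overlap and lay lower in DNp63, against 14.8% of all genes tested. A gene passes the filter on low values even if DNp63 luminal is the only group where it is high. This let in 8 of the 56, the called gene Pifo among them, and another single group let in 2 more. Over the remaining 46 the median was -1.71, with 44 negative and 34 without overlap and lower in DNp63. Of 42 primary cilium genes 3 were called lower (Ift57, Tmem67 and Kif3a), 41 were negative and the median was -0.83. The 14 regulators of multiciliation were more mixed: 1 was called, Foxj1, 9 were negative and 5 positive, and the median was -0.49. Their single-library gate differences lay lower in DNp63 without overlap in 5 and higher in 2. Over the 13 that did not enter through a single group, 8 were negative and the median was -0.53. The median of the 10 tested transcripts that are abundant in multiciliated cells was -1.81, with 0 called. Of these 10, 3 entered through DNp63 luminal alone, and over the other 7 the median was -1.42. These lists were written with results of these data known, so their direction is no independent support.

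Not every step of the programme was seen at a high level. Among fixed markers of multiciliated cells, Tekt1 stood at 50 and 28 in DNp63 luminal and 4 to 14 elsewhere, too low to be tested. Dynlrb2 was listed at 125 and 192 in DNp63 luminal, at 0 and 10 in DNp63 basal and at 0 in all 4 CD1 libraries (interaction -3.73, limma adjusted p = 0.0724, not called). Ccdc113, also not called, was at 109 and 161 in DNp63 luminal and 9 and 15 in DNp63 basal. In CD1 mice Ccdc113 was at 8 and 45 in luminal and 5 and 4 in basal cells, so unlike Foxj1 it was not higher in the basal gate. Among the regulators, Rfx2 had an interaction of -1.35 and Rfx3 of -0.92 (limma adjusted p = 0.199 and 0.158), and Trp73 had 0.38 and Ccno 0.84 (limma adjusted p = 0.917 and 0.672), none of them called. Over the whole axoneme list the values summed to 22890 and 32684 in DNp63 luminal, 4947 and 5672 in CD1 luminal, 6072 and 6150 in CD1 basal, against 6963 and 7256 in DNp63 basal.

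**Figure D4:**
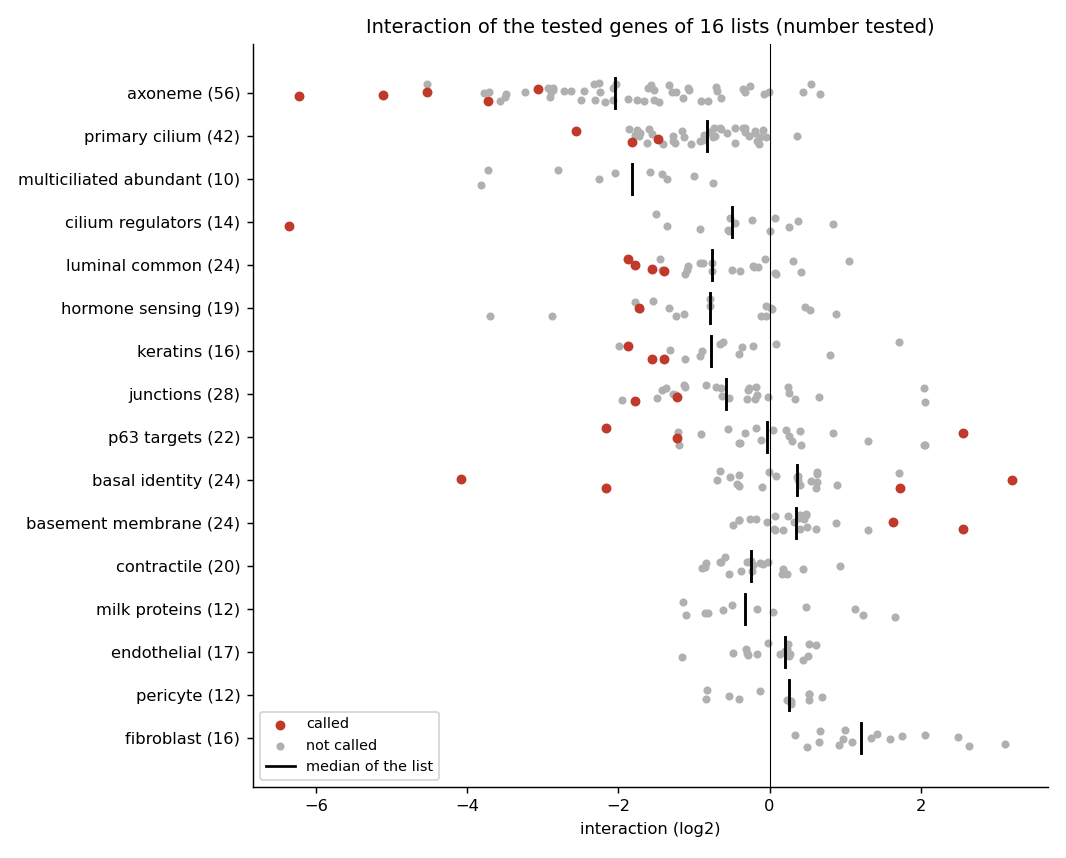
Interaction (log2) of every tested gene in 16 lists, with called genes in red, other genes in grey and the median of each list as a black bar; the number tested is in brackets. The axoneme and primary cilium lists lie mostly below 0, with medians of -2.05 and -0.83, and all 16 fibroblast genes lie above 0, with a median of 1.21 and none called.

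RFX factors bind a motif called the X-box, and promoters of cilium genes are known to carry it, so the promoters of the members were searched for it. Sequences are from RefSeq on GRCm38.p6, taken as the 250 bases before each start site, and 43 of the 58 members matched, with 65 windows. The other members, Foxj1 and Cfap54 among them, had no window and were not searched. The shares of all windows given below include genes that were not tested here. A share over the tested genes alone was not computed. The full motif, the letters GTTNCC and GGNAAC with 2 bases between them, on either strand, was in 2 of the 65 windows (3.08%), those of Pifo and Ttc26, against 0.374% of all 32851 windows. Its first part GTTGCC, which can lie within the full motif, was on either strand in 11 of 65 (16.9%) against 10.4% of all. It was in 10 of the 42 windows of members called higher in DNp63 than in CD1 luminal cells (23.8%), and in 0 of the 14 windows of positive members. The members with it were Ak1, Capn8, Dusp18, Eml1, Fsd1l, Ift57, Kif3a, Mns1, Pifo and Ttc26, so not cilium genes alone. The forkhead core TGTTTAC, searched for Foxj1's family, was on either strand in 5 of 65 (7.69%) against 3.17%. In the 42 windows of members called higher in DNp63 luminal cells it was found in 3 (7.14%), and in the 14 of positive members in 0. The members with the forkhead core were Ccdc30, Iqub, Pik3cg, Prlr and Stx2. The 3 stretches below, of Pifo, Ttc26 and Ift57, were picked from the members with a match. They are written 5′ to 3′ on the strand of the gene, with the matches in capitals.
Pifo (chr3:106001498-106001577, minus strand): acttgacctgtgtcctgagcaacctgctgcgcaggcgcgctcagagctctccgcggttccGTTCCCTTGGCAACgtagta
Ttc26 (chr6:38381483-38381512, plus strand): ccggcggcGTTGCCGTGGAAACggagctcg
Ift57 (chr16:49699147-49699262, plus strand): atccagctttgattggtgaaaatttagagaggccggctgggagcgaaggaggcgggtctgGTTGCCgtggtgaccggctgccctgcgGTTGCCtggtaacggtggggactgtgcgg
Between the full motif and the RefSeq start site lie 6 bases in Pifo and 19 in Ttc26. GENCODE places these gene starts elsewhere, at 106014646 for Pifo, 38381469 for Ttc26 and 49699233 for Ift57. By these coordinates the stretches of Pifo and Ttc26, and the end of that of Ift57, lie within the annotated gene. Ift57 has 2 matches of the short form and none of the full one at the spacing searched. Its second match is followed by t and then ggtaac, so both parts of the motif stand there at another spacing. Other spacings were not searched in any window. A match describes these letters only and was not tested for binding, and the motifs were chosen with the members known.

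Trp63 itself (ENSMUSG00000022510, chr16:25683763-25892102, plus strand) led a group of 9 members whose CD1 gate difference, higher in basal cells, became smaller. It read 61 and 45 in CD1 luminal, 5457 and 7079 in CD1 basal, 1297 and 1460 in DNp63 luminal, and 8088 and 8306 in DNp63 basal. Luminal cells thus held 0.846% of the basal level in CD1 mice and 16.8% in DNp63 mice, and the gates did not overlap in either. The interaction was -4.08 (SE 0.26, limma adjusted p = 0.000592), from a luminal gate difference of 4.46 between mice (limma adjusted p = 2.16e-05) and a basal one of 0.38 (limma adjusted p = 0.485). Reads of the transgene and of the resident gene are not separated in these counts, so the value checks the labels: both DNp63 luminal libraries were above both CD1 luminal ones.

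In the other 8 narrowed genes, too, the DNp63 luminal libraries rose towards the basal level. Rbms3, an RNA-binding protein (chr9:116572746-117629913), went furthest. It read 408 and 608 in CD1 luminal and 5064 and 4951 in CD1 basal, against 4280 and 6597 in DNp63 luminal and 5138 and 5594 in DNp63 basal, so that the DNp63 gates overlapped (interaction -3.25, SE 0.32, limma adjusted p = 0.0113). Cdh3, the P-cadherin of basal cells (chr8:106510891-106557297), read 82 and 56 in CD1 luminal, 408 and 294 in DNp63 luminal cells, 4707 and 4252 in CD1 basal, against 4219 and 4907 in DNp63 basal (-2.16, SE 0.31, limma adjusted p = 0.0337). Luminal Cdh3 stayed at 7.69% of basal in DNp63 mice, against 1.54% in CD1. Pkp1, a plakophilin of desmosomes (chr1:135871395-135919207), read 759 and 782 in CD1 luminal, 2601 and 2540 in DNp63 luminal cells, 3416 and 3086 in CD1 basal, against 4944 and 4013 in DNp63 basal (-1.23, SE 0.18, limma adjusted p = 0.0379).

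The remaining narrowed genes were Ak1, an adenylate kinase (-2.87), Kif26a, an atypical kinesin (-2.70), Apobec1, a cytidine deaminase that edits RNA (-2.65), Eml1, a microtubule-binding protein (-2.20), and Ston2, an endocytic adaptor (-1.66). Ak1 rose from 40 and 52 in CD1 to 503 and 415 in DNp63 luminal cells, and Apobec1 from 36 and 19 to 286 and 439. Their basal values were 547 to 726 and 991 to 1956. Luminal levels as a share of basal levels went from 7.32% to 64.0% for Ak1, from 2.37% to 19.3% for Apobec1 and from 15.0% to 49.7% for Ston2. Over the 9 narrowed genes the DNp63 minus CD1 difference lay between 1.67 and 4.46 in the luminal gate and between -0.29 and 0.69 in the basal gate. Stx2, a membrane fusion protein, came close to them, at 513 and 531 in CD1 basal and 61 and 78 in CD1 luminal against 363 to 607 in the 4 DNp63 libraries (-2.94), and is counted with the changed signs since its DNp63 difference was -0.16.

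Of 22 genes listed as p63 targets, 2 were called lower (Cdh3 and Pkp1) and 1 higher (Fras1), with 11 on each side of 0 and a median of -0.03. Of 24 basal identity genes 2 were called lower (Trp63 and Cdh3) and 2 higher (Moxd1 and Lgr6), 20 were not called and the median was 0.36. Krt5, a keratin of basal cells, had an interaction of 0.08 (95% interval -0.48 to 0.65, limma adjusted p = 0.957). For Krt14, its partner keratin, the value was -0.40 (-1.11 to 0.30, limma adjusted p = 0.743). Acta2, the smooth muscle actin of myoepithelial contraction, gave -0.25 (-0.81 to 0.31, limma adjusted p = 0.813). These intervals hold 0 and do not show that the gate difference was equal. DNp63 luminal libraries held 157 and 167 of Krt5, 433 and 435 of Krt14, and 619 and 646 of Acta2, each under 2% of the DNp63 basal libraries, at 13479 and 14973, 33798 and 35298, and 50512 and 56442. None of 20 contractile genes was called by limma, and their median was -0.24.

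Another group of members moved in the basal gate. Calls between mice in this gate depended on the method over all genes tested. They were 88 lower and 33 higher in the main fit, but 24 lower and 41 higher with voom on recovered reads. Krt18, a keratin of luminal cells (ENSMUSG00000023043, chr15:102028180-102032027, plus strand), read 41482 and 43028 in CD1 luminal, 38642 and 40332 in DNp63 luminal cells, 7339 and 5897 in CD1 basal, against 2104 and 2423 in DNp63 basal. The 4 luminal libraries lay close together, and both DNp63 basal libraries were under both CD1 basal ones, at 5.73% of the luminal level against 15.7% in CD1. The interaction was -1.40 (SE 0.18, limma adjusted p = 0.0299), with a difference of -1.56 between mice in the basal gate (limma adjusted p = 0.00334) and -0.16 in the luminal gate (limma adjusted p = 0.613).

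Krt7 and Krt19, further keratins of simple epithelia, also fell in the basal gate, and Krt19 differed in the luminal gate as well. Krt7 (chr15:101411043-101430313) stood at 1644 and 1150 in CD1 basal, against 430 and 527 in DNp63 basal, with 8383 and 8273 in CD1 luminal and 11717 and 10310 in DNp63 luminal (interaction -1.87, SE 0.25, limma adjusted p = 0.0305). Krt19 (chr11:100140810-100148665) fell from 4015 and 3474 to 1838 and 2045 in the basal gate and rose from 27331 and 27502 to 44598 and 41631 in the luminal gate (-1.55, SE 0.16, limma adjusted p = 0.0128). Cldn4, a claudin of tight junctions (chr5:134945119-134946934), was at 2317 and 2013 in CD1 basal, against 784 and 769 in DNp63 basal, against 17367 to 25924 in the luminal libraries (-1.78, SE 0.19, limma adjusted p = 0.0128). Prlr, the prolactin receptor (chr15:10177238-10349180), was at 9985 and 11534 in CD1 basal, against 3279 and 3476 in DNp63 basal, against 63919 to 89018 in the luminal libraries (-1.73, SE 0.24, limma adjusted p = 0.0320). In all 4 genes DNp63 basal was the lowest group, without overlap with CD1 basal.

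Capn8, a calpain protease, Pik3cg, a catalytic subunit of phosphoinositide 3-kinase, and D1Ertd622e were the other negative members whose basal difference was called. Capn8 read 362 and 400 in CD1 basal, against 102 and 136 in DNp63 basal (-1.86). Pik3cg went from 239 and 172 to 76 and 88 in the basal gate, and from 1199 and 1434 to 2637 and 2289 in the luminal gate, where the difference of 0.84 was not called (-2.09, limma adjusted p = 0.0320). D1Ertd622e was at 628 and 667 in CD1 basal, against 317 and 315 in DNp63 basal (-1.64). Nipal1, a magnesium transporter-like protein, was called in the luminal gate alone, from 2209 and 2234 to 4169 and 3604, with 390 and 348 against 211 and 218 in the basal gate (-1.52). Dusp18, a phosphatase, was likewise called in the luminal gate, from 1107 and 1523 to 2987 and 3506 (-1.71).

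A list of luminal genes shows how wide this was. Of 24 genes common to luminal cells, 4 were called lower in the interaction (Krt7, Cldn4, Krt19 and Krt18), 19 were negative and the median was -0.76. The list summed to 62617 and 50949 in CD1 basal, 33423 and 36822 in DNp63 basal, and 274581 to 297131 in the luminal libraries. As a share of the luminal level, the basal level had a median of 19.8% in CD1 (8.89% to 68.1% over the genes) and 13.8% in DNp63 mice (3.27% to 170%), and was lower in DNp63 for 19 of 24. In the basal gate 9 of the 24 fell between CD1 and DNp63 cells and 0 rose. Cldn4 went from 11.7% to 3.27% and Krt7 from 16.8% to 4.34%, while Epcam, an adhesion molecule of epithelia, went from 18.0% to 13.1%, Cdh1 from 24.6% to 22.6% and Gata3 from 66.5% to 67.4%. Whether luminal cells sorted into the basal gate, or RNA from them, have a part in these values was not tested.

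Krt8, the partner of Krt18, read 8264 and 7206 in CD1 basal, against 3688 and 4293 in DNp63 basal, and its interaction of -0.92 (95% interval -1.31 to -0.52) was not called (limma adjusted p = 0.0738). Esr1, the oestrogen receptor, had -1.13 (-1.73 to -0.53, limma adjusted p = 0.138). Elf5, a factor of alveolar progenitors, had -0.83 (-1.55 to -0.10, limma adjusted p = 0.391), and Pgr, the progesterone receptor, -0.79 (-1.79 to 0.21, limma adjusted p = 0.615). All 4 were negative, and their adjusted p-values do not show that the gate difference was equal. Of 19 hormone-sensing genes Prlr alone was called, with a median of -0.79, and of 12 milk protein genes none was called by limma, with a median of -0.33.

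The 14 positive members were mostly lower in DNp63 luminal cells. Moxd1, a copper monooxygenase-like protein of basal cells here (ENSMUSG00000020000, chr10:24223517-24302790, plus strand), read 359 and 349 in CD1 luminal, 2738 and 2703 in CD1 basal, 56 and 63 in DNp63 luminal, and 4691 and 4468 in DNp63 basal. The luminal level was 13.0% of the basal level in CD1 and 1.30% in DNp63 mice, and no 2 groups overlapped. The interaction was 3.21 (SE 0.20, limma adjusted p = 0.000592), with -2.48 in the luminal gate (limma adjusted p = 0.00012) and 0.73 in the basal gate (limma adjusted p = 0.0646). This was the reverse of Trp63, which was raised in the same DNp63 luminal libraries.

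Genes of the basement membrane and of attachment to it were among these members. Fras1, an extracellular matrix protein that anchors epithelia (chr5:96373955-96784728), read 348 and 249 in CD1 luminal, 53 and 55 in DNp63 luminal cells, 1694 and 1374 in CD1 basal, against 1720 and 1876 in DNp63 basal (interaction 2.56, SE 0.29, limma adjusted p = 0.0158). Lamb3, a chain of laminin-332 (chr1:193207699-193343878), read 2050 and 1634 in CD1 luminal, 803 and 846 in DNp63 luminal cells, 5837 and 5997 in CD1 basal, against 7772 and 8388 in DNp63 basal (1.63, SE 0.19, limma adjusted p = 0.020). Itgb3, an integrin chain that binds matrix (chr11:104608000-104670476), was higher in luminal cells of CD1 mice, at 1344 and 1271 against 765 and 831, and higher in basal cells of DNp63 mice, at 898 and 1460 against 342 and 310 (2.54, SE 0.31, limma adjusted p = 0.0243). Tns3, a tensin of focal adhesions, fell from 2160 and 1619 to 844 and 1045 in luminal cells and read 3070 to 6150 in the basal libraries (1.75).

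Of 24 basement membrane genes, 2 were called higher (Lamb3 and Fras1), 18 were positive and the median was 0.36. Lama3, which pairs with Lamb3 in laminin-332, had 1.30 (limma adjusted p = 0.0838) and was not called. Signals and receptors were also found. Lgr6, a receptor for the Wnt-enhancing R-spondins, read 3330 and 3512 in CD1 luminal, 1849 and 1867 in DNp63 luminal cells, 6547 and 4911 in CD1 basal, against 8619 and 11395 in DNp63 basal (1.73, SE 0.23, limma adjusted p = 0.0320). It was the single call among 31 Wnt pathway genes, whose median was 0.29. Tgfb3, a secreted growth factor, fell from 3224 and 3020 to 1266 and 1550 in luminal cells, with 1326 to 1833 in the basal libraries (1.47). Cxcr4, the receptor of the chemokine Cxcl12, fell from 500 and 571 to 186 and 243, with 476 to 709 in the basal libraries (1.86).

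Pcsk5, a proprotein convertase (1.77), Pdzrn3, a ubiquitin ligase (1.28), Ndrg1, a gene induced by low oxygen (1.12), Pde4b, a phosphodiesterase that degrades cAMP (0.96), and the predicted gene Gm13889 (2.72) were also lower in DNp63 than in CD1 luminal cells. Pde4b, the smallest interaction called, went from 17832 and 18530 to 8537 and 8487. Gm13889 went from 1110 and 708 to 53 and 75. One positive member moved in the basal gate instead: 1600014C10Rik was at 2019 and 3008 in DNp63 basal and between 139 and 239 in the other 6 libraries (3.24, SE 0.39, limma adjusted p = 0.0240). The interactions of the 16 fibroblast genes lay on the same side, with all 16 positive, none called by limma and a median of 1.21, and their sums were highest in both DNp63 basal libraries. Col1a1, Dcn, Lum and Pdgfra, which define fibroblasts, were above 0 in every library. In 13 of the 14 members the called difference lay in the luminal gate. There the fibroblast sums were 10084 and 51272 in CD1 and 19924 and 11784 in DNp63 cells, so the CD1 pair spanned the DNp63 one. Of the 16 genes, 1 was called in that gate, Dcn, lower in DNp63 cells, at 6581 and 7887 in CD1 and 2198 and 1444 in DNp63 cells. Whether fibroblast transcripts have a part in the positive members was not tested.

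**Figure D5:**
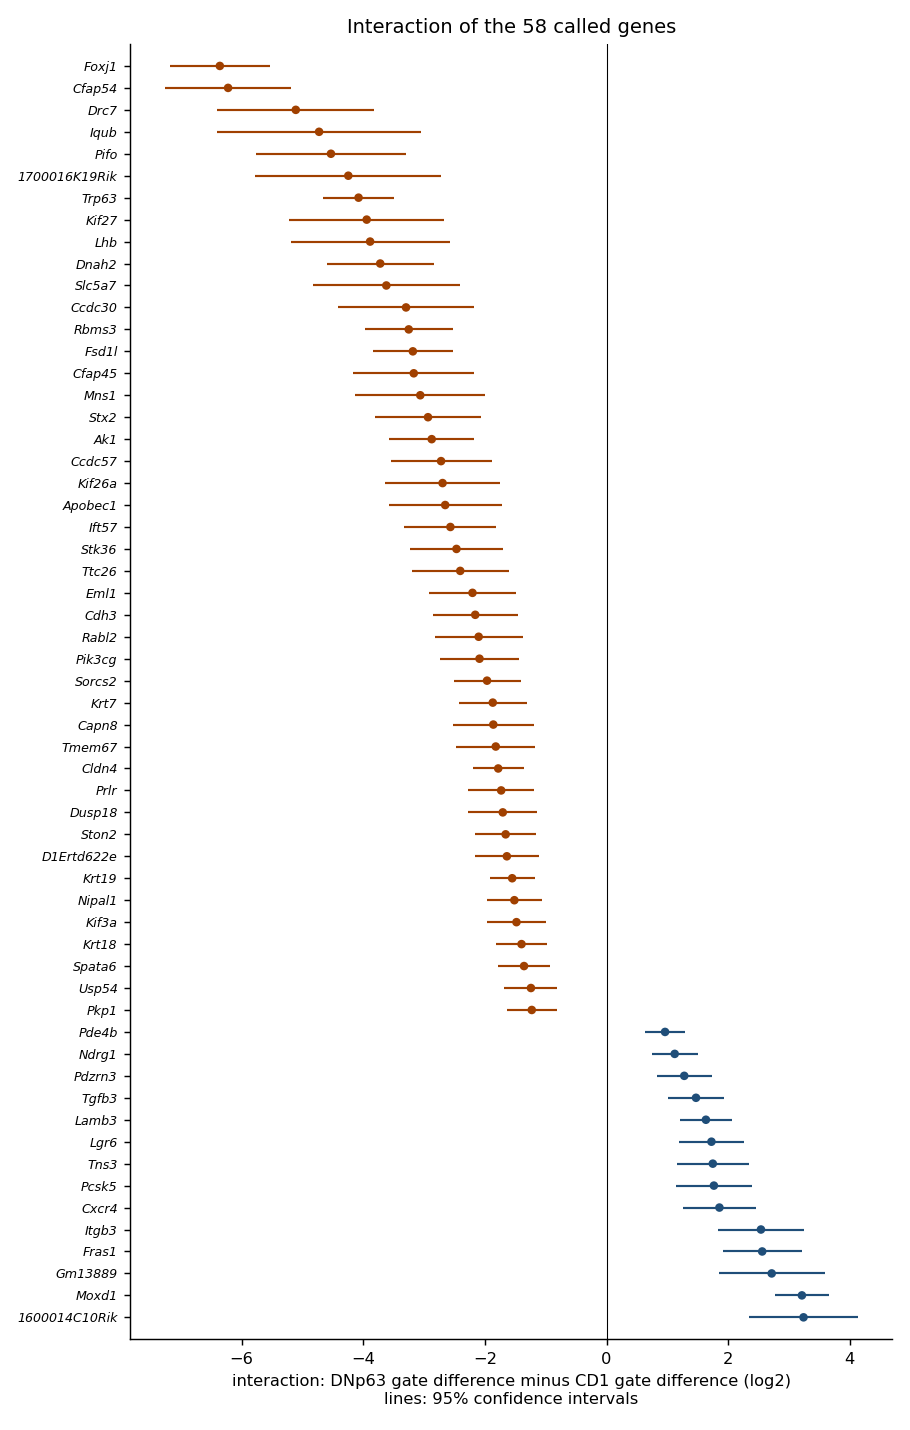
Interaction (log2, point) with its 95% confidence interval (line) for each of the 58 called genes, negative in brown and positive in blue. Intervals are widest for genes with few reads in CD1 libraries, such as Iqub, 1700016K19Rik and Lhb, and narrowest for genes read deeply, such as Krt19 and Pde4b.

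Some members had little or no transcript outside DNp63 luminal cells. Slc5a7, a choline transporter, was listed at 0 in all 4 CD1 libraries, at 467 and 321 in DNp63 luminal and at 22 and 25 in DNp63 basal, so its fitted -3.62 depends on the pseudocount. Lhb, the beta chain of luteinizing hormone, was at 106 and 196 in DNp63 luminal and 4 to 36 elsewhere (-3.89), and its exons share 138 bases with Ruvbl2 on the opposite strand. Ccdc30 was at 250 and 368 against 8 to 39 elsewhere (-3.30), and 1700016K19Rik at 231 and 435 against 4 to 28 (-4.25). With Iqub and Pifo these are the 6 members that passed the filter through DNp63 luminal cells alone, which therefore had to differ. The other members, higher in DNp63 luminal than elsewhere, were Fsd1l (1133 and 1256 against 115 to 348, interaction -3.18), Ccdc57 (539 and 685 against 89 to 140, -2.72), Sorcs2, a sortilin-related receptor (1507 and 1687 against 313 to 793, -1.96), and Usp54 (1699 and 1836 against 727 to 976, -1.24).

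In the 58 members the single-library gate differences did not overlap between CD1 and DNp63 mice, which was also so in 24.5% of all genes tested, 9.74% above and 14.8% below. The weakest calls were 1700016K19Rik, Iqub and Capn8, at limma adjusted p-values of 0.0469, 0.0442 and 0.0442, and just outside lay Ak9 (-5.07, 0.0506), Nxn (-1.40, 0.0520) and Ccbe1 (-2.16, 0.0521). Few calls stood without any one library. The number called was 7 and 6 without DNp63 luminal replicate 1 or 2, 4 and 5 without CD1 basal replicate 1 or 2, 5 and 4 without DNp63 basal replicate 1 or 2, and 162 and 95 without CD1 luminal replicate 1 or 2. Of the 58 members, 56 and 49 remained without CD1 luminal replicate 1 or 2, and between 4 and 6 without any other library. Foxj1, Cfap54, Trp63 and Moxd1 were called without every one of the 8 libraries and under every other setting tried, with limma adjusted p-values of at most 0.0177, 0.0303, 0.0196 and 0.0196. Each of the 58 kept its direction wherever it was tested. The 6 that had passed the filter through DNp63 luminal alone dropped out under 1 or both of the stricter filters.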

How the data were processed

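Bulk RNA-seq of sorted cells was analysed from the table of 8 libraries and 49671 genes. The authors deposited a score per gene and library: read counts per gene scaled to 20000000 per library and rounded up, as the column totals of 20006569 to 20013862 and the steps of low values show. Per the labels' protocols, the Ovation Solo kit and a NovaSeq instrument were used. The submitters' processing notes name STAR, an aligner, HTSeq, a read counter, and GRCm38 (mm10). Versions, annotation and strand setting are not stated in the sources used here. A whole number of reads times the library's step, rounded up, gave exactly 99.6% to 99.9% of the values above 0, and steps off by a few percent gave 25.2% to 50.6% of the low values.

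Groups were taken from strain and gate in the labels. Values were scaled by TMM factors (trims of 30% and 5%, computed over these 8 libraries), 8 was added, and limma 3.58.1 (R 4.3.3) was fitted to the log2 values, with 4 group means and a trend of the variance with the level. Residual degrees of freedom were 4, and the prior added 4.69. Genes that reached 40 in 2 or more libraries entered two-sided tests and were called at a Benjamini-Hochberg adjusted p under 0.05 over all 16900. A count model was not used because the values are scaled. The code was tested on simulated data.

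Named genes were 12 fixed ones (Trp63, Foxj1, Cfap54, Moxd1, Krt18, Krt5, Krt14, Acta2, Krt8, Elf5, Esr1 and Pgr), the 10 most positive and 10 most negative called genes with non-overlapping single-library gate differences and a mean of at least 100 in the highest group, leaving out predicted genes and unnamed clones, and up to 2 called members of each of 33 gene lists (791 entries, all found in the table). Other called genes were named after their values were seen. The members, lists and motifs were chosen with earlier results of these data known. Coordinates are from GENCODE M21 on GRCm38, which held 49326 of the table's genes. Alternatives were other pseudocounts, filters and scalings, voom on recovered reads, a robust prior, the replicate number as a block, and each library left out.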

Additional observations from a re-analysis of the deposited data

Results flagged for a closer look

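Each of the 58 genes is listed because its gate difference differed between CD1 and DNp63 mice by the test of that difference itself, at a limma adjusted p under 0.05. The number in brackets is the interaction on the log2 scale. The test for a single outlying sample needs at least 4 in a group and was not run.

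Motile cilium genes were Foxj1 (-6.36), Cfap54 (-6.22), Drc7 (-5.11), Iqub (-4.73), Pifo (-4.53), Kif27 (-3.94), Dnah2 (-3.72), Cfap45 (-3.17) and Mns1 (-3.06). Genes of cilium assembly, of the transition zone and of the flagellum were Ift57 (-2.57), Stk36 (-2.47), Ttc26 (-2.41), Rabl2 (-2.10), Tmem67 (-1.82), Kif3a (-1.48) and Spata6 (-1.36). Genes higher in CD1 basal than luminal cells, by less in DNp63 mice, were Trp63 (-4.08), Rbms3 (-3.25), Ak1 (-2.87), Kif26a (-2.70), Apobec1 (-2.65), Eml1 (-2.20), Cdh3 (-2.16), Ston2 (-1.66) and Pkp1 (-1.23).

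Members with a called difference between mice in the basal gate, lower in DNp63 basal cells, were Pik3cg (-2.09), Krt7 (-1.87), Capn8 (-1.86), Cldn4 (-1.78), Prlr (-1.73), D1Ertd622e (-1.64), Krt19 (-1.55) and Krt18 (-1.40). The remaining negative members were 1700016K19Rik (-4.25), Lhb (-3.89), Slc5a7 (-3.62), Ccdc30 (-3.30), Fsd1l (-3.18), Stx2 (-2.94), Ccdc57 (-2.72), Sorcs2 (-1.96), Dusp18 (-1.71), Nipal1 (-1.52) and Usp54 (-1.24).

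Positive members were 1600014C10Rik (3.24), Moxd1 (3.21), Gm13889 (2.72), Fras1 (2.56), Itgb3 (2.54), Cxcr4 (1.86) and Pcsk5 (1.77), and with smaller values Tns3 (1.75), Lgr6 (1.73), Lamb3 (1.63), Tgfb3 (1.47), Pdzrn3 (1.28), Ndrg1 (1.12) and Pde4b (0.96). Exons of 16 of the 58 genes share bases with another annotated gene, and in 8 of them that other gene was itself tested.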

How the results depend on the processing

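The interactions called kept their direction wherever tested, which was all 58 under 9 of 11 other settings and without each of the 8 libraries, and 52 and 53 of them under the 2 stricter filters. The number called moved widely. It was 116 with a pseudocount of 32, 10 with no filter on low values (32442 genes tested), 22 with voom on recovered reads (8 higher and 14 lower), and 99 with a robust prior. The calls shared with the 58 were 58, 10, 22 and 58 in that order. The count lay between 48 and 64 with a pseudocount of 2, a stricter filter, values as deposited or median-of-ratios factors. Of the 58, 10 were called under all 11 settings: Foxj1, Cfap54, Trp63, Moxd1, Dnah2, Rbms3, Fsd1l, Ak1, Cldn4 and Krt19. Without 1 library, which leaves a group with a lone library assumed to vary like the others, the count of interactions ranged from 4 to 162, that of luminal mouse differences from 191 to 992 and that of basal mouse differences from 3 to 191. Luminal mouse differences numbered 442 with no filter. Basal ones numbered 45 with no filter and 65 with voom, where 41 were higher and 24 lower against 33 and 88. The interactions of 3 genes that were not called changed sign without 1 library: Krt5 ran from -0.16 (without CD1 basal replicate 2) to 0.32, Krt14 from -0.75 to 0.027 and Acta2 from -0.48 to 0.069 (both highest without CD1 luminal replicate 2). The cause of these shifts was not tested.

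The libraries share replicate numbers, which the labels do not tie to an animal. Deviations of same-numbered libraries had correlations of 0.341 between the CD1 gates, 0.267 between the DNp63 gates and -0.014 to 0.040 across kinds of mice. With the replicate number as a block, 128 interactions and 203 basal mouse differences were called. With the block within each kind of mouse, 502 interactions (183 higher and 319 lower), 1686 luminal and 681 basal mouse differences were called, and the 58 remained under both blocks. Depth limits low genes: 1 read was worth 2.78 to 4.83 in these units.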

Other observations

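Some gene groups had differences between mice in one or both gates and 0 called interactions. Of 12 milk protein genes tested, 10 fell in DNp63 against CD1 luminal cells and 9 in DNp63 against CD1 basal cells, with median differences of -2.20 and -2.83 and a median interaction of -0.33. Of 24 immediate early and dissociation stress genes, 11 fell and 2 rose in the luminal gate, while in the basal gate 0 fell and 1 rose, and the median interaction was 0.23. The 29 cell cycle genes tested had median differences between mice of 1.82 in the luminal and 1.80 in the basal gate, with 1 called higher in the luminal gate, 0 in the basal gate and a median interaction of -0.10. Their summed values were uneven between libraries of a group, at 11962 and 25324 in DNp63 luminal and 8500 and 21563 in DNp63 basal, against 9837 and 7189 in CD1 luminal and 6725 and 6841 in CD1 basal.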
